A study of Homo sapiens with 7 samples.

Results

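The data described here are the eIF3a contacts at 4 pairs of histone genes on chromosome 6, in each of which an H2A gene and an H2B gene lie head to head. Members were chosen by position: every entry of the deposited list of contact sites (build hg19) inside 4 windows of 1300 nt, with the strand deciding which gene it belongs to. This gave 8 read clusters, 1 per gene, among 3604 clusters in the list and 3566 on the primary chromosomes. The windows were proposed with the reads of their clusters, and their order on opposite strands, in view. The comparison of listed width with profile length was set along with them. Those values are therefore a description of the choice and are given without a test.

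The series comprised 7 cell line samples. The eIF3a data came from 2 replicates of PAR-iCLIP. They were made in HEK293T, an established human line of embryonic kidney origin that expresses the large T antigen of SV40. Cells were labelled with 4-thiouridine for 8 h and irradiated at 354 nm. In this method ultraviolet light joins a protein to the labelled uridines it touches, an antibody against eIF3a recovers the protein, and the attached RNA is sequenced. The other 5 samples, N6-methyladenosine libraries of HEK293T and HepG2, were not analysed here. All eIF3a values stand in 1 list that keeps no replicates apart, with no library of an untreated or control group used here, so the values below have no replicate error and the comparisons no test. The depth of the libraries is unknown.

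Histones H2A and H2B form the dimers that flank the central H3-H4 tetramer of the nucleosome. Their replication-dependent genes stand in clusters, largely lack introns, and are transcribed mainly in S phase into mRNAs that end in a stem-loop in place of a poly(A) tail. Many H2A and H2B genes are arranged head to head around a shared promoter. eIF3 is the multi-subunit initiation factor through which the 40S ribosomal subunit is recruited to mRNAs, and eIF3a is its largest subunit.

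The shared promoters are shown first, because the listed contacts of each pair lie on either side of them. RefSeq promoter windows (GRCh38.p14, 250 nt before to 50 nt after the start) matched 7 of the 8 genes; HIST1H2AH (now H2AC12) had no entry, and the first of the 2 windows of HIST1H2BK (H2BC12) was used. The 30 bases below end 4 bases past the motif TATAAA, or at a like distance where it was not found next to the start. Capitals mark TATAAA and ATTTGCAT, the octamer element known from H2B promoters.
HIST1H2BJ: tATTTGCATaagcgattctaTATAAAagcg
HIST1H2BK: tATTTGCATgagaggtcctaTATAAAaacg
HIST1H2BL: ctcggccgcataaactattaTATAAAaaga
HIST1H2BO: ctcatctgcatatagacttgtaaataaata
HIST1H2AG: ttttcgcgcccaatagtgttTATAAAaagc
HIST1H2AI: ttttcgcgcccagtagaggcTATAAAatgt
HIST1H2AM: ttttcgcgcccagcagctgcTATAAAatgc

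The octamer began 47 nt and TATAAA 28 nt before the start in HIST1H2BJ, and 46 and 27 nt before it in HIST1H2BK. In this alignment the 3 H2A stretches shared their first 12 bases, ttttcgcgccca. Searched on both strands of the 250 nt before the start, TATAAA was found in 7 of 7 member windows, against 11.1% of all 27305 promoter windows. CCAAT was found in 7 of 7, against 33.0% of all windows. ATTTGCAT was found in 5 of 7, against 1.66% of all windows; HIST1H2BL and HIST1H2AI, which form 1 pair, held no exact match. The 2 windows of a pair overlap, so a match in the space between the genes counts for both. This was so for the ATTTGCAT matches of HIST1H2BJ and HIST1H2AG, and for those of HIST1H2AM and HIST1H2BO. HIST1H2BO had no TATAAA next to its own start. Its window took in, on the other strand, the TATAAA that began 31 nt before the start of HIST1H2AM, since 239 bases lay between the 2 starts. These motifs are family features: the 27 other H2A and H2B genes with a window held TATAAA in 17, CCAAT in 27 and ATTTGCAT in 20. A match describes the letters and not a bound factor.

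The listed intervals lay on either side of these promoters, and in the 3 pairs that could be measured their outer ends were as far apart as the first ATGs of the reference transcripts. In the deposited list, the minus-strand interval of HIST1H2BJ ran from 27100530 to 27100575 and the plus-strand interval of HIST1H2AG from 27100817 to 27100850 on chromosome 6. HIST1H2BK (minus) ran from 27114578 to 27114637 and HIST1H2AH (plus) from 27114884 to 27114907. HIST1H2BL (minus) ran from 27775685 to 27775707 and HIST1H2AI (plus) from 27775977 to 27775987. In the last pair the order of the classes was turned, with the H2A gene HIST1H2AM (minus) from 27860928 to 27860963 and the H2B gene HIST1H2BO (plus) from 27861203 to 27861240. Ends are uncertain by 1 nt, since intervals listed in full were 1 nt shorter than their profiles. No hg19 annotation was used here, so the windows' own gene names were taken over.

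Distances could nevertheless be set against the reference, because the overlap of the 2 promoter windows of a pair fixes how far apart its starts are. The builds differ, so distances within a pair were compared and no coordinates. Between the starts of HIST1H2BJ and HIST1H2AG the reference had 247 bases, and the gap between the listed intervals was 241 nt. For HIST1H2AM and HIST1H2BO both were 239. For HIST1H2BL and HIST1H2AI the reference had 243 bases and the gap was 269 nt, 26 nt more.

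The outer ends matched more closely. Counting all bases between the first ATG of one gene and that of the other, the reference had 321 bases for HIST1H2BJ and HIST1H2AG, 303 for HIST1H2BL and HIST1H2AI, and 313 for HIST1H2AM and HIST1H2BO. The listed intervals of these pairs spanned 321, 303 and 313 nt from outer end to outer end, a difference of 0 in 3 of 3 pairs. The leader from the annotated start to the first ATG was 23 nt in HIST1H2BL, 36 nt in HIST1H2AM and 38 nt in HIST1H2BO, and each equalled the listed width. It was 45 nt in HIST1H2BJ against 46 nt listed, 29 nt in HIST1H2AG against 34 nt listed, and 37 nt in HIST1H2AI against 11 nt listed. The window of HIST1H2BK held no ATG in its first 50 nt, which leaves that pair without this comparison, as does the missing entry of HIST1H2AH. In all promoter windows, 40.7% held an ATG within 50 nt of the start.

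**Figure D1:**
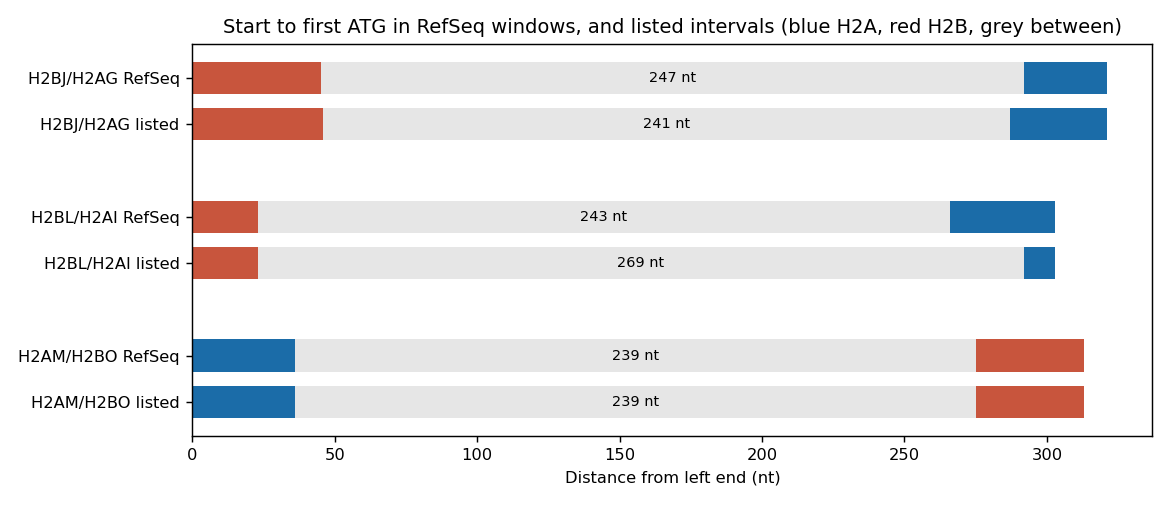
Bars give, for 3 pairs, the distance in nt from the left outer end: coloured parts are the leader from the RefSeq start to the first ATG (upper bar of a pair) or the listed interval (lower bar), and grey is the space between. Both bars of a pair end at the same distance (321, 303 and 313 nt), while the grey gaps of the first 2 pairs differ (247 and 241 nt, 243 and 269 nt).

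The first ATG of each RefSeq window is shown in capitals with the 21 bases before it, since the distances above were measured to it; no listed end was placed on these bases by coordinate.
HIST1H2BJ: gctttatagctacacagtgctATG
HIST1H2BL: ttttgccactattgtttcattATG
HIST1H2BO: gctctttcactctcctccgccATG
HIST1H2AG: tcgtagtgagttgcgctcgctATG
HIST1H2AI: atagataataggccttttgccATG
HIST1H2AM: taggccacaggtcgttttaccATG

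T, whose place uridine takes in RNA and 4-thiouridine can take after labelling, was counted over the whole 50 nt after the start, which run past the first ATG in 6 of the 7 windows. Over the first 50 nt after the start, T made up 28% in HIST1H2AG and 40% in HIST1H2BJ, the lowest and highest of the 7 windows, with a median of 36%. The median of all promoter windows was 20%, and that of the 27 other H2A and H2B genes 38%. GGAC, the core letters of the m6A consensus, was found on the transcript strand of these 50 nt in 2 of 7 members, HIST1H2AG and HIST1H2AM, and in 18.8% of all windows. In both members the next base was G, which the consensus does not take.

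Reads behind each site were recovered by splitting its coverage profile into reads of 25 nt, which left no remainder in any of the 3113 distinct profiles of the list. HIST1H2BJ held 102 reads and HIST1H2BK 98, the fifth and sixth highest numbers of all primary clusters (ranks 5 and 6). HIST1H2AG and HIST1H2AI held 55 reads each, HIST1H2BO 43 and HIST1H2AH 42. HIST1H2AM held 31 and HIST1H2BL, the lowest member, 20. The H2B genes thus held both ends of the range. Together they had 446 reads, 1.16% of the 38419 reads on the primary chromosomes, in 0.224% of the clusters. Of the 8, 6 held 40 or more reads, a level reached by 3.42% of all primary clusters; reads were in view when the members were chosen. The median over members was 49 reads, against 6 in the 3558 other clusters.

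**Figure D2:**
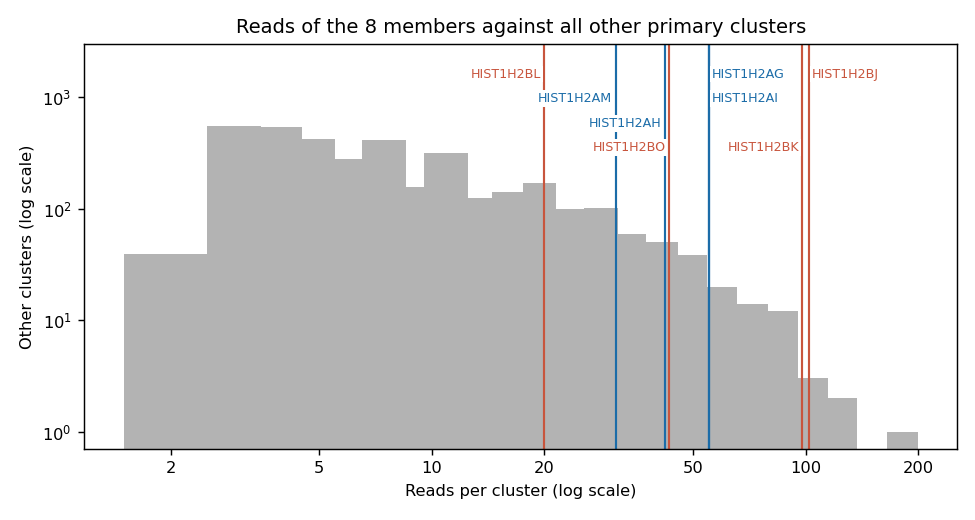
The grey histogram counts the other primary clusters by reads per cluster (both axes on log scales), and vertical lines mark the members, H2A in blue and H2B in red. The members lie between 20 and 102 reads, and the lines of HIST1H2AG and HIST1H2AI coincide at 55.

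The summit, the highest coverage in a cluster, differed less than the reads. It was 21 reads in HIST1H2BK and HIST1H2BO, 20 in HIST1H2BJ, 17 in HIST1H2AG and HIST1H2AI, 15 in HIST1H2AH, 14 in HIST1H2AM and 10 in HIST1H2BL. Every start position in the 8 profiles held at most 1 read, and in the list as a whole 36882 starts held 1 read and 10 held more. A summit of 25-nt reads with 1 read per start cannot pass 25, so the summits of the 3 highest members were near that bound. HIST1H2BO reached the same summit as HIST1H2BK with 43 reads against 98.

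Set side by side, the H2B gene had more reads than the H2A gene in 3 of the 4 pairs. HIST1H2AG had 55 reads and HIST1H2BJ 102, so the H2A gene took 35.0% of the pair's reads (95% Wilson interval 28.01 to 42.8). HIST1H2AH had 42 and HIST1H2BK 98, a share of 30% (23.0 to 38.0). HIST1H2AM had 31 and HIST1H2BO 43, a share of 41.9% (31.3 to 53.3), and this interval includes equal shares. The pair of HIST1H2AI and HIST1H2BL was the other way round, with 55 and 20 reads and a share of 73.3% (62.4 to 82.0). The intervals cover binomial counting error only, and reads of 1 cluster need not be independent molecules. Each start held at most 1 read, so reads cannot exceed the possible starts of a profile. These numbered 59 in HIST1H2AM and 290 in HIST1H2BK, and the intervals do not allow for this bound. With 4 gene pairs from 1 list, the 3 against 1 is a count and not a test of the classes.

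The direction of reads went with that of the length of the profile in 4 of 4 pairs, and with that of the density of reads in 3 of 4. A longer profile has more possible starts, so reads and length are not independent measures. The summit was also higher on the H2B side in 3 of 4 pairs, and the profile was longer there in the same 3. The profile was 299 nt in HIST1H2BJ against 179 nt in HIST1H2AG, 314 nt in HIST1H2BK against 170 nt in HIST1H2AH, and 144 nt in HIST1H2BO against 83 nt in HIST1H2AM. In HIST1H2AI it was 245 nt against 127 nt in HIST1H2BL. Per 100 nt of profile the H2A gene was higher in 2 pairs and the H2B gene in 2. HIST1H2AM had 37.3 reads per 100 nt and HIST1H2BO 29.9, so this was the pair whose order by density differed from that by reads. HIST1H2BJ had 34.1 and HIST1H2AG 30.7, HIST1H2BK 31.2 and HIST1H2AH 24.7, and HIST1H2AI 22.4 and HIST1H2BL 15.7. All 8 densities were above 10.7, the median of the other primary clusters, which were not matched for reads. In the 477 others with at least as many reads as the lowest member, the median was 20.8 and the quartiles 16.7 and 27.4. HIST1H2BL lay below these quartiles, and HIST1H2AI and HIST1H2AH lay between them. HIST1H2AM, HIST1H2BO, HIST1H2BJ, HIST1H2AG and HIST1H2BK lay above them.

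**Figure D3:**
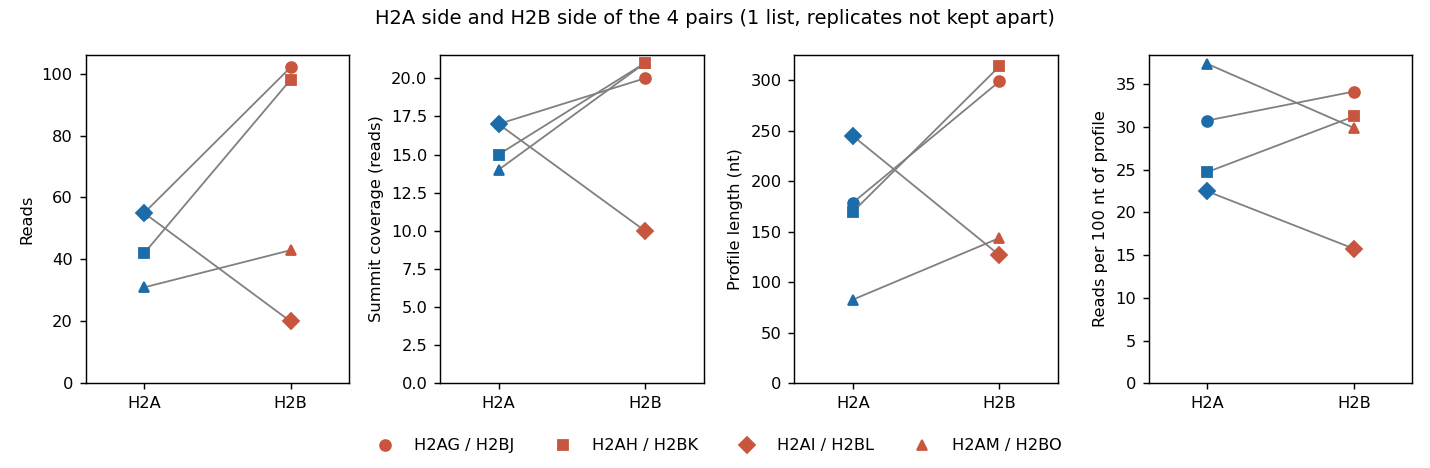
Each line joins the H2A gene (blue) and the H2B gene (red) of 1 pair, with one marker shape per pair, for reads, summit coverage in reads, profile length in nt and reads per 100 nt of profile. In the first 3 panels 3 lines rise towards H2B and that of HIST1H2AI and HIST1H2BL falls; in the last panel 2 rise and 2 fall.

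Less than the whole profile was listed for each member, between 4.49% and 43.4% of it. The listed width and the profile length were 46 of 299 nt in HIST1H2BJ (15.4%), 60 of 314 in HIST1H2BK (19.1%), 23 of 127 in HIST1H2BL (18.1%) and 38 of 144 in HIST1H2BO (26.4%). On the H2A side they were 34 of 179 nt in HIST1H2AG (19.0%), 24 of 170 in HIST1H2AH (14.1%), 36 of 83 in HIST1H2AM (43.4%) and 11 of 245 in HIST1H2AI (4.49%). HIST1H2AI was the extreme, with a profile 22.3 times its listed width. The listed width was larger on the H2B side in 4 of 4 pairs, including the pair whose H2A gene had more reads.

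All 8 members were listed shorter than their profiles by more than 1 nt, against 42.2% of all primary clusters. This comparison was set when the members were proposed, so it is a description and not an independent result. Their median listed share was 18.6%, against 97.2% over the other primary clusters and 84.7% over the 477 others with 20 or more reads. Long profiles with short intervals also occurred at the other histone loci of the list, where 8 of 9 clusters were shortened. The 6 clusters between 26056657 and 26235216 of chromosome 6 had a median listed share of 52.8%, and the 3 between 149783879 and 149858232 of chromosome 1 had 12.7%. The other divergent pairs were mostly listed nearly in full, with a median of 97.8% over 104 clusters. Those clusters were shorter and held fewer reads, with medians of 62.5 nt and 6 reads against 174.5 nt and 49 reads in the members. The 2 sets were therefore not matched in length or reads. The gaps of the 4 histone pairs, 239 to 269 nt, lay inside the range of the other 52 pairs, whose median was 329 nt, and 4 of those pairs fell within the histone range.

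**Figure D4:**
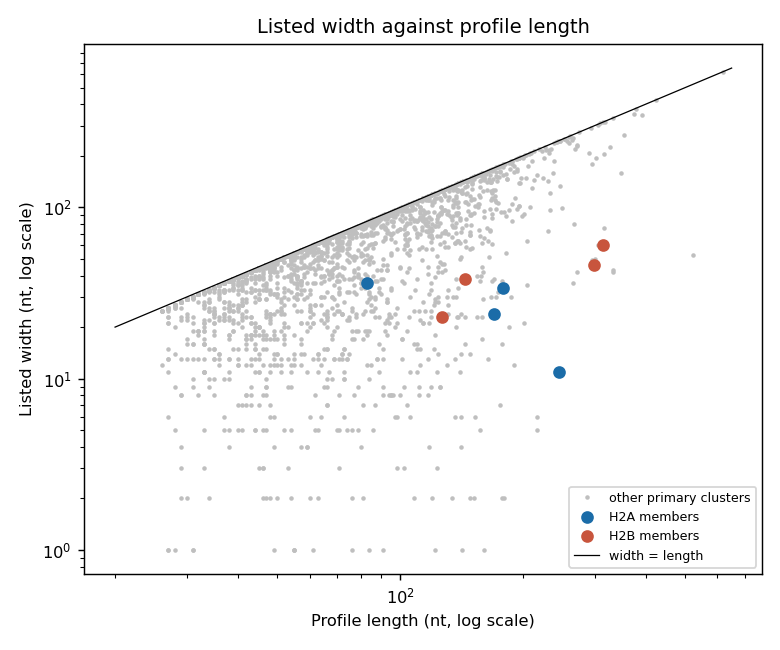
Listed width is plotted against profile length in nt on log axes, with other primary clusters in grey, H2A members in blue, H2B members in red and a line where both are equal. The 8 members lie well below the line, from 36 of 83 nt in HIST1H2AM to 11 of 245 nt in HIST1H2AI.

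The positions of summits and read starts were not used by the rule for the members. In 7 of 8 the summit was first reached within 37 nt of the upstream end of the profile itself, wherever that end lies on the transcript. The exception was HIST1H2BL, at nt 45, and the top of HIST1H2AM was flat. In the 477 other clusters with 20 or more reads the median was nt 57. Profiles run in genomic order, as seen from 5 profiles of 10 or more reads that recurred on the opposite strand as mirror images, with 0 recurring there unmirrored. Read from the upstream end, coverage peaked at nt 23 to 25 in HIST1H2AG, at nt 25 in HIST1H2AH and at nt 37 in HIST1H2AI. The H2B genes HIST1H2BK, HIST1H2BO and HIST1H2BJ peaked first at nt 25, 27 and 32, and HIST1H2BL at nt 45. HIST1H2AM had a flat top that reached 14 reads first at nt 20 and last at nt 57. The midpoint between the first and last nt of the summit lay in the upstream part of the profile in 8 of 8 members. In HIST1H2AM it was nt 38.5 of 83, and the flat top itself ran past the middle of the profile. By the same rule this was so in 56.3% of all primary clusters at least as long as the shortest member. It was also so in 7 of the 9 clusters at the other histone loci.

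The upstream rise was steep. In the first 25 nt, reads began at 72% of positions in HIST1H2BJ, 84% in HIST1H2BK, 80% in HIST1H2BO and 32% in HIST1H2BL. On the H2A side the shares were 68% in HIST1H2AG, 60% in HIST1H2AH, 64% in HIST1H2AI and 56% in HIST1H2AM. Over the rest of the profile they were between 15.4% in HIST1H2BL and 50% in HIST1H2AM. Relative to an even spread over the profile, the first 25 nt held between 1.07 times (HIST1H2AM) and 2.57 times (HIST1H2AI) as many read starts, with a median of 2.01. The median was 1.00 in the 477 other clusters with 20 or more reads, 1.98 in 5 of the 6 clusters of the other histone region of chromosome 6 (the sixth was too short) and 1.62 in the 3 on chromosome 1. Values like those of the members were thus also measured at other histone loci.

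**Figure D5:**
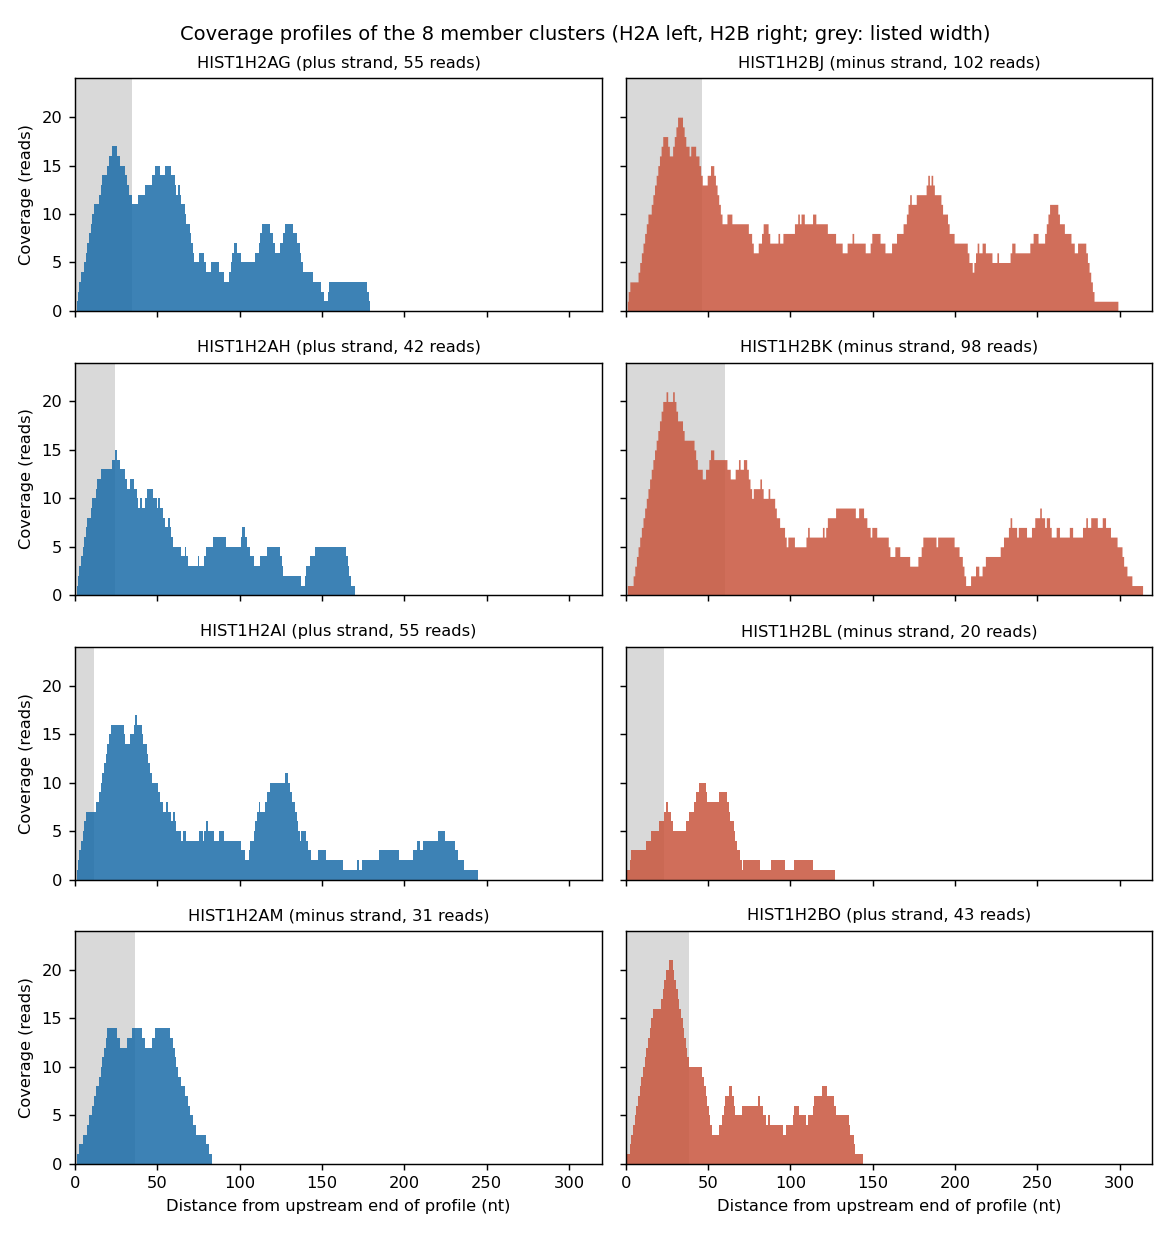
Each panel plots coverage in reads against distance in nt from the upstream end of the profile, H2A genes left (blue) and H2B genes right (red), one pair per row. The grey band is the listed width, drawn from the upstream end as an assumption, and coverage peaks between nt 20 and 45 in all 8 before lower peaks downstream in 6.

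Downstream of the summit the profiles differed. HIST1H2BJ had further peaks of 10, 14 and 11 reads at nt 105, 184 and 260, and HIST1H2BK had 2 of 9 reads at nt 133 and 252. HIST1H2AI fell to 2 reads and rose again to 11 at nt 128, and had a peak of 5 reads at nt 222. HIST1H2AG kept further peaks of 15 reads at nt 50 and of 9 at nt 116. HIST1H2AH had 7 reads at nt 102 and 5 at nt 155, and HIST1H2BO had 8 reads at nt 63 and again at nt 121. HIST1H2BL and HIST1H2AM had no other peak that rose 4 reads above its surroundings.

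Where the profile lies relative to the listed interval is not recorded. If the upstream ends coincide, the profiles run from the listed leader into the gene, and the summit falls inside the listed part in HIST1H2BJ, HIST1H2BK, HIST1H2AG and HIST1H2BO. It then falls 1 nt past the listed end in HIST1H2AH, 22 nt past it in HIST1H2BL and 26 nt past it in HIST1H2AI, while the flat top of HIST1H2AM spans the end. Under that placement the listed part would hold the starts of 30 of 102 reads in HIST1H2BJ, 38 of 98 in HIST1H2BK, 20 of 55 in HIST1H2AG and 7 of 55 in HIST1H2AI. The highest shares would be 64.5% in HIST1H2AM and 53.5% in HIST1H2BO. If instead the downstream ends coincided, the 2 profiles would overlap by 157 nt in the pair of HIST1H2BJ, 154 nt in that of HIST1H2BK and 69 nt in that of HIST1H2BL, and would stay 86 nt apart in that of HIST1H2BO.

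Likeness of the profiles depended on how they were laid. Upstream end to upstream end was compared with alignment on the listed downstream end. The latter was placed in each profile on the assumption that the upstream ends of profile and interval coincide. Over the 28 combinations of members, Pearson's r of coverage along the shared length had a median of 0.74 in the former case (range 0.38 to 0.93) and 0.48 in the latter (-0.13 to 0.90), and was higher in 23 of 28. Between the H2A and H2B gene of 1 pair the alignments did not separate, with medians of 0.62 and 0.61 and a higher r upstream in 2 of 4. The closest profiles were those of the H2A genes HIST1H2AG and HIST1H2AM, with r of 0.93 over 83 nt. Aligned on the listed downstream end, HIST1H2AG and HIST1H2AM were again the closest, with r of 0.904 over 81 nt. HIST1H2BJ and HIST1H2BO followed, with r of 0.896 over 144 nt. Neighbouring positions share reads and all profiles start and end low, so these values describe likeness and carry no p.

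H2A genes are similar to each other, as are H2B genes, so reads can be uncertain in their placement. Identity between members was not measured here, and the bases printed before the first ATG differed between them. No stretch of 40 nt with 10 to 30 read starts was common to a member and any other locus of the list. With stretches of 20 nt, 8 of 8 members shared one with another locus, and HIST1H2BJ and HIST1H2BO each shared one with another member, so the call depends on the length searched. Copies outside the list, and reads assigned to 1 of several like genes by the aligner, would not be seen this way.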

How the data were processed

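The list gives, per interval, its strand, the signal and the coverage along the cluster. Per the submitters' processing notes, reads were aligned to hg19 with Bowtie, version not given; how clusters were called and filtered, duplicates treated and replicates pooled is not given in the sources used here. What the authors deposited as signal is the highest read coverage of a cluster, unnormalized and in whole reads; in all 4013 entries it was the profile's maximum. Entries of 1 chromosome, strand and profile within the profile's length were counted as 1 cluster. Coordinates are printed counting from 1, the file being read as 0-based. Splitting was run on simulated profiles built from 25-nt reads (3113 of 3113 recovered), which checks the code and not the real reads. Lengths of 24 and 26 nt split 0 profiles of the list. Divergent pairs are adjacent minus-then-plus sites at most 1000 nt apart. Peaks had to rise 4 reads above their surroundings. Gene symbols were matched through RefSeq synonyms. All 8 members are named, by rule; members, lists and measures were chosen with earlier results of these data known. No test was made, since no replicates are kept apart. Python 3.11.15 was used with scipy 1.17.1, pandas 2.3.3, numpy 2.4.6 and, for plots, matplotlib 3.10.9. Not analysed here were the 5 m6A libraries and protein identity among members.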

Additional observations from a re-analysis of the deposited data

How the results depend on the processing

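The number of member clusters stayed at 8 when rows were counted as deposited and when windows were widened by 1000 nt. Leaving out scores under the median could not change it, since that median was 5 on the primary chromosomes and the lowest member score was 10. The members' reads were also 446 as the area under the profiles divided by the read length. This had to be so, because the splitting left no remainder. The median member ranked at the 97.7th percentile by reads, and at 93.8 among clusters of divergent pairs. The H2A share moved to 45.9% and 41.7% by summit in the pairs of HIST1H2AG and HIST1H2AH, and to 47.4%, 44.2% and 58.8% by reads per 100 nt in those of HIST1H2AG, HIST1H2AH and HIST1H2AI. It changed sides of equality for HIST1H2AM by reads per 100 nt (55.6%) and for HIST1H2AI by listed width (32.4%). The median H2A share, 38.5%, became 35.0% without the pair of HIST1H2AI or that of HIST1H2AM, and 41.9% without that of HIST1H2AG or that of HIST1H2AH. With profiles extended from the downstream end, the gaps became -157, -154, -69 and 86 nt. With stretches of 20 nt, 8 members shared one with another locus, against 0 at 40 nt. No paired analysis was possible because replicates are not separated in the deposited list, and for the same reason no replicate could be left out and agreement between replicates was not run. The depth of the libraries is unknown.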
